A study of Mus musculus with 6 samples.

Results

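The genes described here encode the nuclear subunits of the mitochondrial respiratory chain and ATP synthase, together with the assembly factors that carry the same kind of name. They were chosen by symbol alone: names that begin with Nduf, Uqcr, Atp5 or Cox followed by a digit, with Sdha, Sdhb, Sdhc, Sdhd, Cyc1 and Cycs. The rule took 103 of the 21878 genes in the table, and no measured value entered it. The cells were NIH3T3, immortalised fibroblasts first grown from mouse embryos, and the labels give all 6 RNA-seq libraries a radiation injury. One group received plasma-derived exosomes (3 libraries), small membrane vesicles collected here from plasma, and the other received phosphate-buffered saline, PBS (3 libraries), both at 72 h. The labels give no radiation dose and no source species of the plasma, and an unirradiated group was not analysed here. Separate cultures are not stated for the replicates, so a p-value reflects how these libraries varied, and that variation may be technical.

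The respiratory chain moves electrons from NADH, which enters at complex I, and from succinate, which enters at complex II, to ubiquinone, then through complex III, cytochrome c and complex IV to oxygen. Complexes I, III and IV pump protons across the inner mitochondrial membrane, and ATP synthase, or complex V, lets them flow back while it makes ATP. Most subunits are encoded in the nucleus and imported, a few are encoded in mitochondrial DNA, and dedicated assembly factors put the parts together. Dividing fibroblasts in culture draw on both this pathway and glycolysis for ATP.

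Levels are in FPKM, which corrects fragment counts for the length of the transcript and the size of the library; the deposited columns say only expression, and FPKM is inferred. Differences are log2 changes of FPKM + 1, exosomes over PBS, with their standard error (SE). A gene was tested with limma when it reached 1 FPKM in at least 3 of the 6 libraries, and was called raised or lowered at a Benjamini-Hochberg adjusted p under 0.05 over all 10274 genes tested. In bulk RNA such as this, a change in the number of cells of one kind and a change in RNA per cell cannot be told apart.

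In each library 10080 to 10271 genes reached 1 FPKM, and the FPKM of all genes summed to 296751 to 313048. The table gives no count for a single library, and the authors' deposited mean normalized counts summed to 19824812 for exosomes and 20341541 for PBS. Behind the tested genes described here stood a median of 860.9 normalized counts in the authors' deposited table, and 1 gene, Cox16, had under 100. The 8 fibroblast markers examined summed to 5927 to 6300 FPKM in exosome libraries and 5061 to 5185 FPKM in PBS libraries. The 8 leukocyte markers summed to 1.85 to 2.56 FPKM with exosomes and 3.47 to 4.83 FPKM with PBS, with Cd3e listed at 0 in all. Platelet markers summed to 8.29 to 11.1 FPKM with exosomes and 6.35 to 8.90 FPKM with PBS, with Gp9 at 0. Erythroid markers summed to 0 to 1.32 FPKM with exosomes and 0.025 to 0.563 FPKM with PBS, with Alas2 at 0. Endothelial markers summed to 0.216 to 0.337 FPKM with exosomes and 0.353 to 0.535 FPKM with PBS, and epithelial markers to 0.288 to 0.318 FPKM with exosomes and 0.351 to 0.527 FPKM with PBS, with Krt5 at 0. The part of these markers in the results below was not tested.

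With exosomes a share of the respiratory chain genes had slightly more mRNA on the FPKM scale. Called lower were 3 complex I assembly factors and cytochrome c, and of these only Ndufaf2 kept its call whichever single library was left out. Among the raised genes were 14 of 29 tested accessory subunits of complex I (48.3%, against 25.4% of all tested genes). In the authors' own comparison from counts only 4 of these 29 were raised, where 16.8% of tested genes with a value were raised. Of the 103 genes, 93 could be tested. With exosomes 32 of them were raised, where 25.4% of all tested genes were raised, and 4 were lowered, where 18.4% of all tested genes were lowered. As shares of the 93 genes these are 34.4% and 4.30%, and the 36 calls in either direction stand against 43.8% of all tested genes. For transcripts under 700, 700 to 1000, 1000 to 2000 and 2000 to 4000 bases, the raised shares were 29.4%, 38.9%, 37.9% and 27.3%. The shares of all tested genes in these classes were 28.7%, 32.9%, 28.0% and 26.6%. The authors' own comparison from counts raised 12 of the 93 genes, a smaller share than the 16.8% of tested genes with a value. The median change of the 93 genes was 0.10, against 0.04 over all tested genes, and 72 of the 93 changed by less than 0.25 in either direction. All 3 exosome values lay above all 3 PBS values in 38 genes, against 32.0% of all tested genes, and below them in 3 genes, against 23.5%. The genes as a list were not tested against other genes. The genes took 2.497%, 2.39% and 2.53% of the summed FPKM in exosome replicates 1 to 3, against 2.34%, 2.33% and 2.32% in the PBS replicates, so the groups did not overlap and exosome replicate 2 lay nearest to PBS.

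**Figure D1:**
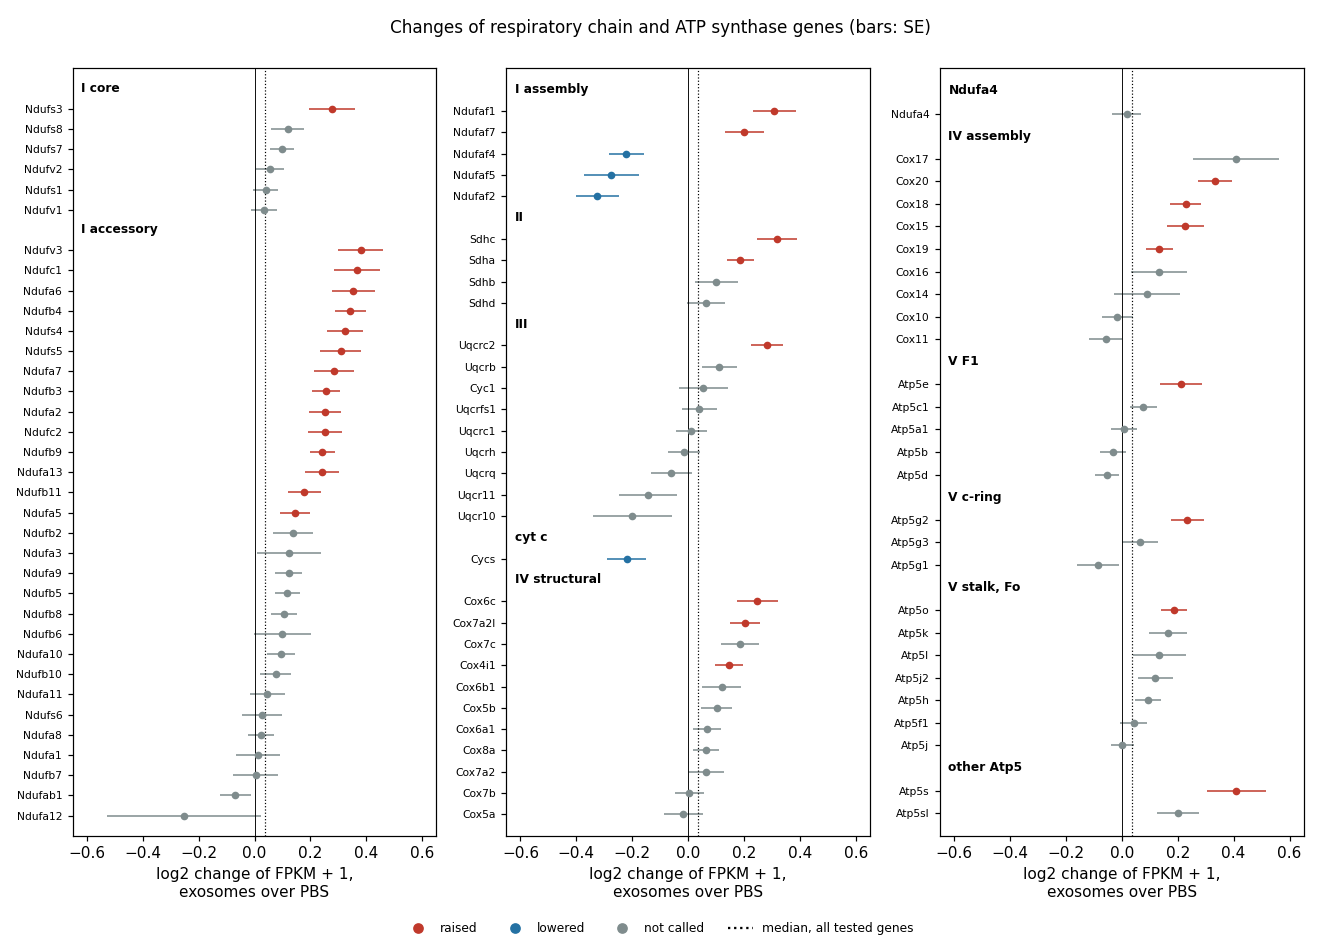
Log2 change of FPKM + 1, exosomes over PBS, for tested genes by complex and role (1 gene is not shown), with bars of 1 SE; red is raised, blue lowered and grey not called at an adjusted p under 0.05. The dotted line marks the median of all tested genes, 0.04, and most points lie to its right. To its left lie the 3 lowered complex I assembly factors and Cycs, and also genes that were not called, Ndufa12 and Uqcr10 among them.

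The calls rested to different degrees on single libraries. When each library was left out in turn, 24 to 40 genes were raised and 1 to 3 were lowered. The shares of all tested genes called in these fits are not given here. Among the 32 raised genes 22 kept their call in every such fit, and among the 4 lowered genes 1 did, Ndufaf2. Lowered genes numbered 2 without exosome replicate 1 and 1 without exosome replicate 2 or without PBS replicate 1. Relative to the PBS mean, the median gene stood 0.14, 0.03 and 0.16 higher on the log2 scale in exosome replicates 1, 2 and 3. Exosome replicate 2 was therefore close to PBS for the typical gene, and without it 40 genes were raised and 1 was lowered. All tested genes with transcripts under 1000 bases showed the same order, at 0.15, 0.05 and 0.16 in the 3 exosome replicates.

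**Figure D2:**
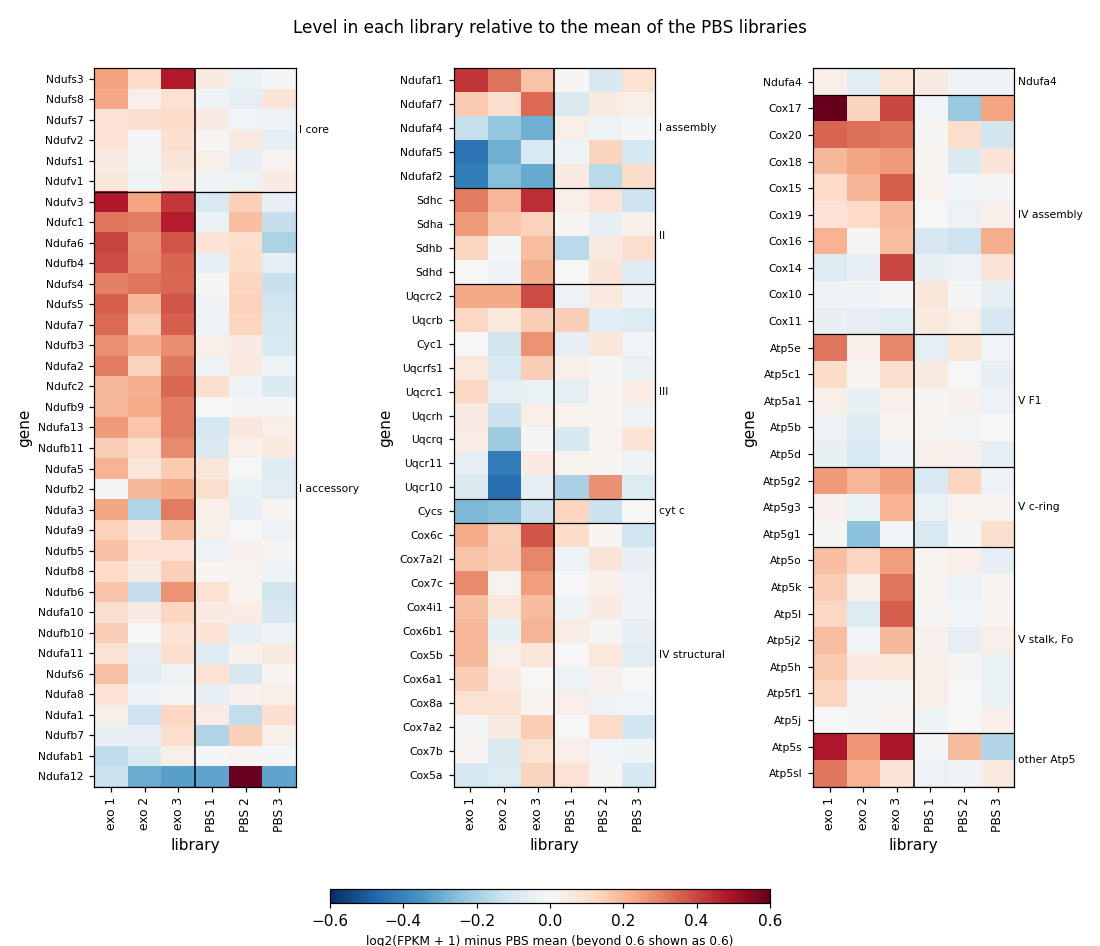
Level of tested genes in each of the 6 libraries (1 gene is not shown), as log2(FPKM + 1) minus the mean of the PBS libraries, with exosome libraries left of PBS libraries and genes grouped by complex and role. Exosome replicates 1 and 3 are red across most genes, exosome replicate 2 is paler, and Ndufa12 is high in PBS replicate 2 alone.

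Complex I, which oxidises NADH and reduces ubiquinone, held 18 of the 32 raised genes and 3 of the 4 lowered ones, among 41 tested of 43. These are 43.9% and 7.32% of the 41, against 25.4% and 18.4% of all tested genes. The FPKM of its tested genes summed to 1826, 1693 and 1860 in the exosome libraries, against 1600.2, 1639 and 1561 in the PBS libraries. Its median change was 0.12, and 0.05 once a trend of change on transcript length, described further on, was removed. The core subunits carry the flavin and the iron-sulfur clusters. Ndufs3, a core subunit of the arm that reaches into the matrix, had 37.9, 34.5 and 44.7 FPKM with exosomes, against 33.1, 30.9 and 31.7 FPKM with PBS. The groups did not overlap, but exosome replicate 3 stood well above the other two. Its change of 0.28 ± 0.08 passed the test (adjusted p = 0.0223) and lost the call without PBS replicate 2 or PBS replicate 3 (adjusted p = 0.0548 to 0.0598).

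Ndufv1, Ndufv2, Ndufs1, Ndufs7 and Ndufs8 were not called, with changes between 0.03 and 0.12. Ndufv1, which binds NADH and the flavin, averaged 46.6 ± 1.66 FPKM with exosomes and 45.4 ± 1.42 FPKM with PBS (SD, n = 3 each). Ndufv2 and Ndufs1, which carry the first iron-sulfur clusters, changed by 0.05 ± 0.05 and 0.04 ± 0.05. Ndufs7 and Ndufs8 hold the clusters next to ubiquinone and changed by 0.10 ± 0.04 and 0.12 ± 0.06 (adjusted p = 0.0980 and 0.132). In Ndufs7 all 3 exosome values, 28.3, 28.5 and 28.7 FPKM, lay above the PBS values of 27.5, 26.3 and 26.0 FPKM, a difference too small for the test at this spread.

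Accessory subunits surround the core and stabilise it, and 14 of the 29 were raised and 0 lowered, with a median change of 0.14 that fell to 0.05 with the length trend removed. With 1 library left out, 12 to 17 were raised and the median was 0.11 to 0.22, highest without exosome replicate 2. The authors' deposited table called 4 of the 29 raised and 0 lowered. Ndufv3, a small subunit beside the NADH-binding end, had 16.0, 13.4 and 15.4 FPKM with exosomes, against 10.5, 12.5 and 10.8 FPKM with PBS. Ndufc1, a single-pass membrane subunit, had 44.4, 44.0 and 49.4 FPKM with exosomes, against 34.4, 40.2 and 32.0 FPKM with PBS. Ndufa6, which binds the acyl carrier protein, had 89.6, 81.8 and 88.0 FPKM with exosomes, against 71.6, 72.6 and 59.0 FPKM with PBS. In each of these the groups did not overlap, although the highest PBS library came to within a few FPKM of the lowest exosome library for Ndufv3 and Ndufc1. The changes were 0.38 ± 0.08 for Ndufv3, 0.37 ± 0.08 for Ndufc1 and 0.35 ± 0.08 for Ndufa6, with adjusted p = 0.00454, 0.00611 and 0.00577.

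The other 11 raised accessory subunits changed by between 0.15 and 0.34. Ndufb4, of the far end of the membrane arm, averaged 62.1 ± 2.32 FPKM with exosomes and 48.9 ± 3.29 FPKM with PBS, and Ndufb9, of the same region and the most abundant complex I gene, averaged 117 ± 4.69 FPKM with exosomes and 98.4 ± 0.519 FPKM with PBS. Ndufs4, whose loss in mice stops completion of the NADH-binding module and causes an encephalopathy, had 20.5, 20.8 and 21.1 FPKM with exosomes, against 16.5, 18.03 and 14.9 FPKM with PBS. Its exosome values were the tightest of the group, and its change was 0.32 ± 0.06 (adjusted p = 0.00353). Ndufs5, Ndufa7, Ndufb3, Ndufa2, Ndufc2 and Ndufa13 were raised by 0.24 to 0.31 and kept their calls in all fits that left out 1 library. Ndufb11 lost its call without exosome replicate 1, exosome replicate 3 or PBS replicate 1 (adjusted p = 0.0629 to 0.137). Ndufa5 lost it without exosome replicate 1, exosome replicate 3, PBS replicate 2 or PBS replicate 3 (adjusted p = 0.0854 to 0.153).

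The 15 accessory subunits that were not called ranged from -0.25 for Ndufa12 to 0.14 for Ndufb2. Ndufa12, the subunit that takes the place of the assembly factor Ndufaf2 late in assembly, had 29.2, 25.8 and 25.4 FPKM with exosomes, against 25.5, 50.2 and 25.5 FPKM with PBS. PBS replicate 2 alone was high, the other 5 libraries lay between 25.4 and 29.2 FPKM, and the SE of its change was 0.28. Ndufab1, the mitochondrial acyl carrier protein, averaged 23.0 ± 1.62 FPKM with exosomes and 24.1 ± 0.252 FPKM with PBS, and was the only other accessory subunit with a change below 0, at -0.07. For Ndufa9, Ndufb5 and Ndufb8 the groups did not overlap but the adjusted p was 0.0628, 0.0601 and 0.0890.

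The complex I assembly factors moved in both directions: of 5 tested, 2 were raised and 3 lowered. Ndufaf1, a member of the intermediate-assembly complex that builds the membrane arm, had 8.76, 8.10 and 7.17 FPKM with exosomes, against 6.29, 5.78 and 6.73 FPKM with PBS. Ndufaf2, a late factor that holds the site of Ndufa12, had 5.02, 5.70 and 5.49 FPKM with exosomes, against 7.30, 6.17 and 7.64 FPKM with PBS. Ndufaf4, which works on the ubiquinone-binding module together with Ndufaf3, had 4.13, 3.81 and 3.60 FPKM with exosomes, against 4.78, 4.53 and 4.62 FPKM with PBS. In these 3 genes the groups did not overlap, with exosomes higher for Ndufaf1 and lower for Ndufaf2 and Ndufaf4. The changes were 0.31 ± 0.08 for Ndufaf1 (adjusted p = 0.01002), -0.32 ± 0.08 for Ndufaf2 (adjusted p = 0.00850) and -0.22 ± 0.06 for Ndufaf4 (adjusted p = 0.0170), and the authors' deposited table called all 3 in the same directions (adjusted p = 0.0170, 0.00320 and 0.0181). Ndufaf4 lost its call without exosome replicate 2, exosome replicate 3 or PBS replicate 1 (adjusted p = 0.0513 to 0.0657).

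The remaining 2 calls among these factors were weaker. Ndufaf5, which hydroxylates an arginine of Ndufs7, had 1.96, 2.29 and 2.78 FPKM with exosomes, against 2.95, 3.42 and 2.74 FPKM with PBS. The groups overlapped, since exosome replicate 3 lay just above PBS replicate 3. Its change was -0.28 ± 0.10 (adjusted p = 0.0466), was lost without exosome replicate 1, exosome replicate 2, PBS replicate 1 or PBS replicate 2 (adjusted p = 0.0924 to 0.161), and in the authors' deposited table the log2 fold was -0.07 (adjusted p = 0.913). Ndufaf7, an arginine methyltransferase, averaged 9.26 ± 0.880 FPKM with exosomes and 7.92 ± 0.467 FPKM with PBS, a change of 0.20 ± 0.07 (adjusted p = 0.0432). Its call was lost without exosome replicate 1, exosome replicate 3, PBS replicate 1 or PBS replicate 3 (adjusted p = 0.0554 to 0.154). Ndufaf3 and Ndufaf6 were too low to test, at mean levels of 0.432 and 0.859 FPKM with exosomes and 0.283 and 1.03 FPKM with PBS.

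Complex II, succinate dehydrogenase, is shared between the respiratory chain and the citric acid cycle and is encoded wholly in the nucleus. Of its 4 subunits 2 were raised and 0 lowered, in every fit that left out 1 library as well. Sdha, the flavin-bearing subunit that oxidises succinate, had 55.6, 52.1 and 51.2 FPKM with exosomes, against 47.0, 44.9 and 47.4 FPKM with PBS. Sdhc, one of the pair that anchors the enzyme in the membrane, had 74.7, 68.9 and 81.8 FPKM with exosomes, against 61.6, 63.7 and 54.9 FPKM with PBS. All exosome values were above all PBS values in both genes. The changes were 0.19 ± 0.05 for Sdha (adjusted p = 0.0105) and 0.32 ± 0.07 for Sdhc (adjusted p = 0.00652), and the authors' deposited table called Sdha raised but not Sdhc (adjusted p = 0.0435 and 0.0637). Sdhb, the iron-sulfur subunit, averaged 37.1 ± 2.63 FPKM with exosomes and 34.6 ± 3.40 FPKM with PBS, and Sdhd, the other anchor, averaged 56.1 ± 5.32 FPKM with exosomes and 53.5 ± 2.91 FPKM with PBS. In Sdhb and Sdhd the groups overlapped, with changes of 0.10 ± 0.08 and 0.06 ± 0.07.

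Complex III, which passes electrons from ubiquinol to cytochrome c, had 1 raised gene and 0 lowered among 9. Raised genes made up 11.1%, against 25.4% of all tested genes, and the median change was 0.01. That median had no stable sign, at -0.01 after scaling to a common sum, -0.04 with the length trend removed and 0.03 after upper-quartile scaling. The raised gene was Uqcrc2, one of the large core proteins on the matrix side, which had 46.6, 46.5 and 52.4 FPKM with exosomes, against 38.7, 41.4 and 39.0 FPKM with PBS. The groups did not overlap, the change was 0.28 ± 0.06 (adjusted p = 0.00335), and the call held without any single library. Uqcrc1, its partner in the complex, averaged 52.7 ± 3.77 FPKM with exosomes and 52.2 ± 1.86 FPKM with PBS. The catalytic subunits Cyc1, the cytochrome c1 heme protein, and Uqcrfs1, the Rieske iron-sulfur protein, changed by 0.05 ± 0.09 and 0.04 ± 0.06 and their groups overlapped.

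The small subunits of complex III were not called and lay on both sides of 0. Uqcrh, the hinge protein that contacts cytochrome c and the most abundant gene of the complex, averaged 302 ± 20.5 FPKM with exosomes and 305 ± 5.83 FPKM with PBS. Uqcr11 had 113, 87.8 and 121 FPKM with exosomes, against 119, 118 and 115 FPKM with PBS, so exosome replicate 2 alone was low. Uqcrb, a ubiquinone-binding protein, changed by 0.11 ± 0.06, and it was called only without PBS replicate 1. Uqcrq and Uqcr10 changed by -0.06 ± 0.07 and -0.20 ± 0.14. For Uqcr10 the log2 fold in the authors' deposited table was 0.06, of the opposite sign.

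Cytochrome c, the soluble carrier between complexes III and IV, which also triggers apoptosome formation once released into the cytosol, was lower with exosomes. Cycs had 15.7, 15.8 and 17.4 FPKM with exosomes, against 21.0, 17.4 and 19.1 FPKM with PBS. The groups did not overlap, but exosome replicate 3 and PBS replicate 2 were almost level. The change was -0.22 ± 0.07 (adjusted p = 0.0295), and the call was lost without exosome replicate 1, exosome replicate 2, PBS replicate 1 or PBS replicate 3 (adjusted p = 0.0534 to 0.113). In the authors' deposited table its log2 fold was -0.20 with an adjusted p of 0.139. The testis form Cyct was listed at 0 FPKM in all 6 libraries. Cycs has 3 named pseudogenes in RefSeq, and the handling of reads that match several places is not stated.

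Complex IV, cytochrome c oxidase, had 7 raised genes and 0 lowered among 21 tested of 29, with a median change of 0.12, or 0.02 with the length trend removed. Raised genes made up 33.3% of the 21, against 25.4% of all tested genes. Their count was 2 without exosome replicate 3, 4 without PBS replicate 1 and 9 without exosome replicate 2. Among the 11 tested structural subunits 3 were raised (27.3%, against 25.4% of all tested genes). Cox6c, the most abundant gene of the complex, had 384, 363 and 425 FPKM with exosomes, against 354, 331 and 302 FPKM with PBS. Cox4i1, a subunit that takes part in regulation by ATP, had 302, 279.9 and 305 FPKM with exosomes, against 263, 276 and 262 FPKM with PBS. Cox7a2l, which links complexes III and IV in supercomplexes, had 145, 143 and 158 FPKM with exosomes, against 126, 136 and 124 FPKM with PBS. In these 3 genes the groups did not overlap, but the gap between the nearest values was small. The changes were 0.25 ± 0.07 for Cox6c (adjusted p = 0.0226), 0.15 ± 0.05 for Cox4i1 (adjusted p = 0.0423) and 0.20 ± 0.05 for Cox7a2l (adjusted p = 0.0142).

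None of the 3 structural calls held in every fit that left out 1 library, and 0 structural subunits were raised without exosome replicate 3. Cox6c lost its call without exosome replicate 1, exosome replicate 3 or PBS replicate 3 (adjusted p = 0.0546 to 0.0744). Cox4i1 lost it without exosome replicate 1, exosome replicate 3, PBS replicate 1 or PBS replicate 3 (adjusted p = 0.106 to 0.131). Cox7a2l lost it without exosome replicate 3 or PBS replicate 1 (adjusted p = 0.0518 to 0.0563), and was called raised in the authors' deposited table (adjusted p = 0.0299). The 8 tested structural subunits that were not called ranged from -0.02 for Cox5a to 0.18 for Cox7c, whose adjusted p was 0.0509. Ndufa4, once counted in complex I and now placed in complex IV, averaged 269 ± 12.99 FPKM with exosomes and 266 ± 7.59 FPKM with PBS, a change of 0.02 ± 0.05.

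Several complex IV subunits exist in pairs of a widely expressed form and a form restricted to muscle, lung, testis or other tissues, and these cells carried the widely expressed one in both groups. Cox4i1 made up 100% of the summed FPKM of Cox4i1 and Cox4i2 in the exosome libraries and 99.997% ± 0.004 in the PBS libraries. Cox6a1 made up 99.3% ± 0.423 with exosomes and 99.7% ± 0.116 with PBS of the pair with Cox6a2, the heart and skeletal muscle form. Cox6a2 itself had 0.610, 2.54 and 1.65 FPKM with exosomes, against 0.931, 0.441 and 0.703 FPKM with PBS. Its groups overlapped, it was too low to be tested here, and the authors' deposited table called it raised (adjusted p = 0.0305) on mean normalized counts of 21.0 with exosomes and 8.36 with PBS. Cox7a2 made up 99.5% ± 0.455 with exosomes and 99.8% ± 0.30 with PBS of the pair with Cox7a1. Ndufa4 made up 99.9% with both exosomes and PBS of the pair with Ndufa4l2, a form induced by hypoxia.

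Forms at or near 0 could not be tested. Cox6b2, Cox8b and Cox8c were listed at 0 FPKM in all 6 libraries, and Cox4i2 had a value above 0 in PBS replicate 1 alone, at 0.020 FPKM. Cox7b2 had 0.344, 0.803 and 0 FPKM with exosomes, against 0, 0.111 and 0 FPKM with PBS. Cox7a1 and Ndufa4l2 averaged 0.277 and 0.332 FPKM with exosomes and 0.0964 and 0.137 FPKM with PBS. The widely expressed partners of the untested forms were at high levels: Cox6b1 averaged 270.3 ± 26.1 FPKM with exosomes and 248 ± 8.38 FPKM with PBS, Cox8a averaged 293 ± 8.84 FPKM with exosomes and 280.4 ± 6.49 FPKM with PBS, and Cox7b averaged 58.4 ± 3.67 FPKM with exosomes and 58.2 ± 1.46 FPKM with PBS. None of Cox6b1, Cox8a and Cox7b was called.

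**Figure D3:**
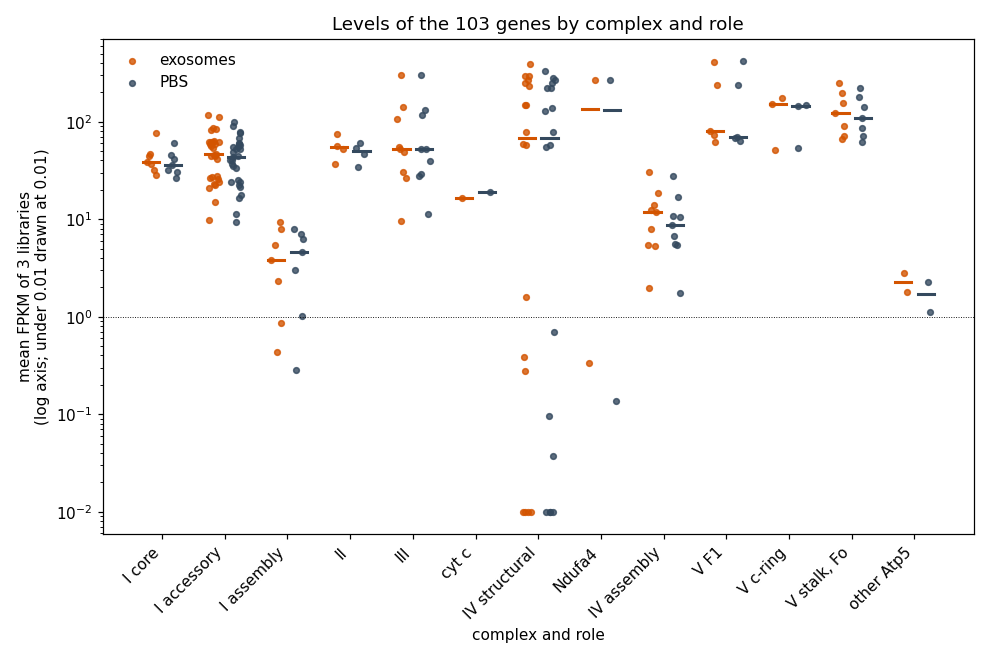
Mean FPKM of 3 libraries on a log axis for each of the 103 genes by complex and role, exosomes left and PBS right, with a bar at the median and values under 0.01 drawn at 0.01. Levels run from the assembly factors, mostly under 20 FPKM, to Atp5b, the highest, and the complex IV structural group holds the forms that were at or near 0.

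Of the 9 complex IV assembly factors 4 were raised (44.4%, against 25.4% of all tested genes) and 0 lowered. Cox20, which stabilises newly made COX2, had 14.1, 13.9 and 13.8 FPKM with exosomes, against 10.9, 11.8 and 10.004 FPKM with PBS. Cox18, the translocase that moves the tail of COX2 across the membrane, had 12.2, 12.6 and 12.8 FPKM with exosomes, against 10.7, 9.87 and 11.2 FPKM with PBS. In both genes the groups did not overlap and the exosome libraries lay close together. The changes were 0.33 ± 0.06 for Cox20 (adjusted p = 0.00197) and 0.23 ± 0.06 for Cox18 (adjusted p = 0.00878), and both calls held without any single library. Cox15, which makes heme A, was raised by 0.23 ± 0.07 (adjusted p = 0.0212) and lost the call without exosome replicate 3 (adjusted p = 0.0752). Cox19, a copper-handling protein of the intermembrane space, was raised by 0.13 ± 0.05 (adjusted p = 0.0496) and lost the call when any 1 library but exosome replicate 1 was left out (adjusted p = 0.0603 to 0.169).

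Cox17, the copper chaperone that supplies the oxidase, had 14.4, 9.46 and 11.6 FPKM with exosomes, against 8.43, 7.17 and 10.3 FPKM with PBS. The groups overlapped, since PBS replicate 3 exceeded exosome replicate 2. Its change of 0.41 ± 0.15 was among the largest of the 93 genes but was not called (adjusted p = 0.0642), while the authors' deposited table called it raised (adjusted p = 0.00896). It was called without exosome replicate 2, without PBS replicate 3, or with the replicate number of the titles as a block. Cox10, which makes heme O, and Cox11, which delivers copper, changed by -0.02 ± 0.06 and -0.06 ± 0.06. Cox14, a factor in the making of COX1, had 26.3, 27.0 and 37.2 FPKM with exosomes, against 27.1, 27.2 and 29.6 FPKM with PBS, so exosome replicate 3 alone was high. Cox16 averaged 1.99 ± 0.224 FPKM with exosomes and 1.74 ± 0.371 FPKM with PBS, but its mean normalized counts in the authors' deposited table were 3.90 and 5.58, of the opposite sign, so no direction could be read for it.

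ATP synthase, complex V, was read from 17 genes named Atp5, of which 2, Atp5s and Atp5sl, are not structural subunits of it. Among the 17, 4 were raised, Atp5s included, and 0 lowered. The raised share was 23.5%, close to the 25.4% of all tested genes. The median change was 0.09, or 0.02 with the length trend removed. Without exosome replicate 2, 7 were raised, and without any other 1 library 3 or 4. Of the 5 genes of the catalytic F1 head 1 was called. Atp5b, the catalytic beta subunit and the most abundant of all 103 genes, had 407, 394 and 419 FPKM with exosomes, against 419, 412 and 416 FPKM with PBS. Atp5a1, the alpha subunit, had 242, 229 and 242 FPKM with exosomes, against 238, 241 and 231 FPKM with PBS. In both the groups overlapped, with changes of -0.03 ± 0.05 and 0.01 ± 0.05. Atp5c1, the rotating gamma subunit, changed by 0.08 ± 0.05 and Atp5d, the delta subunit of the same stalk, by -0.05 ± 0.04. Atp5e, the epsilon subunit, had 86.1, 70.4 and 84.2 FPKM with exosomes, against 66.0, 72.5 and 68.1 FPKM with PBS. The groups overlapped because exosome replicate 2 lay below PBS replicate 2, and the change of 0.21 ± 0.08 (adjusted p = 0.0442) was lost without exosome replicate 1, exosome replicate 3, PBS replicate 1 or PBS replicate 3 (adjusted p = 0.0961 to 0.150).

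The membrane rotor of ATP synthase is a ring of identical c subunits, and the mature protein is the same from 3 genes that differ in their import sequences. Atp5g2 had 178, 171 and 176 FPKM with exosomes, against 140, 163 and 145 FPKM with PBS. Atp5g3 had 148, 141 and 168 FPKM with exosomes, against 141, 147 and 147 FPKM with PBS, and Atp5g1 had 53.9, 45.1 and 53.0 FPKM with exosomes, against 50.4, 53.4 and 57.5 FPKM with PBS. Only in Atp5g2 did the groups stay apart, with a change of 0.23 ± 0.06 (adjusted p = 0.0103) that held without any single library and was called in the authors' deposited table (adjusted p = 0.0197). Atp5g3 and Atp5g1 changed by 0.06 ± 0.06 and -0.09 ± 0.07 and were not called. As a share of the summed FPKM of the 3 genes, Atp5g2 made up 46.4% ± 1.81 with exosomes and 42.8% ± 1.74 with PBS. Atp5g3 made up 40.2% ± 1.81 with exosomes and 41.7% ± 1.10 with PBS, and Atp5g1 made up 13.4% ± 0.794 with exosomes and 15.5% ± 0.905 with PBS (SD, n = 3 each). The share of Atp5g2 in exosome replicate 3, 44.4%, lay below its share in PBS replicate 2, 44.8%, so these shares overlapped, and they were not tested.

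In the peripheral stalk and membrane part 1 of 7 genes was raised (14.3%, against 25.4% of all tested genes) and 0 lowered. Atp5o, the protein at the top of the stalk that confers sensitivity to oligomycin, had 122, 118 and 128 FPKM with exosomes, against 109, 111 and 104 FPKM with PBS. The groups did not overlap, and the change of 0.19 ± 0.05 (adjusted p = 0.0112) held without any single library, but the authors' deposited table did not call it (adjusted p = 0.162). The other 6 changed by between 0.00 for Atp5j and 0.17 for Atp5k. Atp5k and Atp5l, small membrane subunits at the contact between dimerised synthases, had their highest value in exosome replicate 3, at 274 and 180.0 FPKM. Without exosome replicate 2 both were called, as was Atp5j2.

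A pair of genes named Atp5s and Atp5sl resemble each other and are not structural subunits of the synthase. Atp5s, also known as coupling factor B, had 1.93, 1.503 and 1.94 FPKM with exosomes, against 1.08, 1.38 and 0.851 FPKM with PBS. The groups did not overlap, although exosome replicate 2 and PBS replicate 2 were close. Its change was the largest of the 93 genes at 0.41 ± 0.10 (adjusted p = 0.0112), a scale that understates changes of genes this low. The authors' deposited table gave it 126 normalized counts with exosomes and 77.7 with PBS, a log2 fold of 0.70 (adjusted p = 0.00171). Atp5sl averaged 2.79 ± 0.314 FPKM with exosomes and 2.29 ± 0.114 FPKM with PBS, and its groups did not overlap, with an adjusted p of 0.0542.

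The authors' own comparison, made from counts, gave fewer calls. A value was given for 101 of the genes in the authors' deposited table, and of these 13 were raised, against 12.4% of all genes with a value, and 2 were lowered, against 13.5%. Among the 93 genes tested here these were 12 raised, against 16.8% of the tested genes with a value, and 2 lowered, against 19.8%. Called raised in both were 11 genes, among them Ndufs4, Ndufv3, Ndufa6, Ndufb3, Ndufaf1, Sdha, Uqcrc2, Cox7a2l, Atp5g2 and Atp5s. Called lowered in both were Ndufaf2 and Ndufaf4. All 32 genes raised on FPKM had a fold above 1 in the authors' deposited table. Across the 93 genes the median log2 fold of that table was 0.05, and Pearson's r between it and the FPKM change was 0.85, a description across genes of the same 6 libraries. The FPKM change exceeded the authors' log2 fold by a median of 0.06 in these genes and 0.04 in all tested genes.

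**Figure D4:**
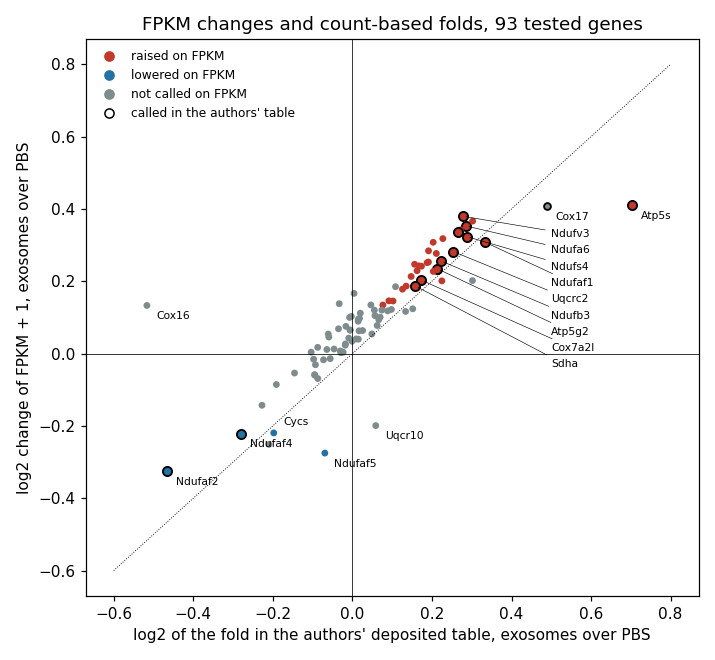
Log2 change of FPKM + 1 against the log2 fold of the authors' deposited table, both exosomes over PBS, for the 93 tested genes; colour gives the call on FPKM, a black rim the call in the authors' table, and the dotted line equality. Most points lie just above the line, 11 raised and 2 lowered genes are called on both scales, and Cox16 lies farthest from the line, with opposite signs on the 2 scales.

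Most of these genes have short transcripts, with a median length of 865 bases in the annotation against 2950 for all tested genes, and changes in these libraries varied with transcript length. The median change of all tested genes was 0.12 for lengths under 700 bases, 0.12 for 700 to 1000, 0.07 for 1000 to 2000, 0.03 for 2000 to 4000 and -0.00 at 4000 or more. In the first 4 classes the respiratory chain and ATP synthase genes had medians of 0.12, 0.11, 0.10 and 0.01, close to those of all genes of their length. Raised genes made up 29.4%, 38.9%, 37.9% and 27.3% of the respiratory chain and ATP synthase genes in these classes, against 28.7%, 32.9%, 28.0% and 26.6% of all tested genes. Lowered genes made up 2.94%, 0%, 3.45% and 18.2% of them, against 8.42%, 10.05%, 16.0% and 18.9% of all tested genes. With a trend on length removed in every library, the median change of the 93 genes was 0.02, and 25 were raised and 7 lowered. The shares of all tested genes called in this fit are not given here. The fitted curve was taken out with its level, so a shift shared by all genes, with a median of 0.04 before, was removed too. The 25 were all among the 32, and those no longer called were Ndufa5, Ndufb11, Ndufaf7, Cox4i1, Cox6c, Cox19 and Atp5e. The 4 lowered genes stayed called, and Uqcrh, Uqcr11 and Atp5d joined them. The part of transcript length in the changes was not tested otherwise.

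**Figure D5:**
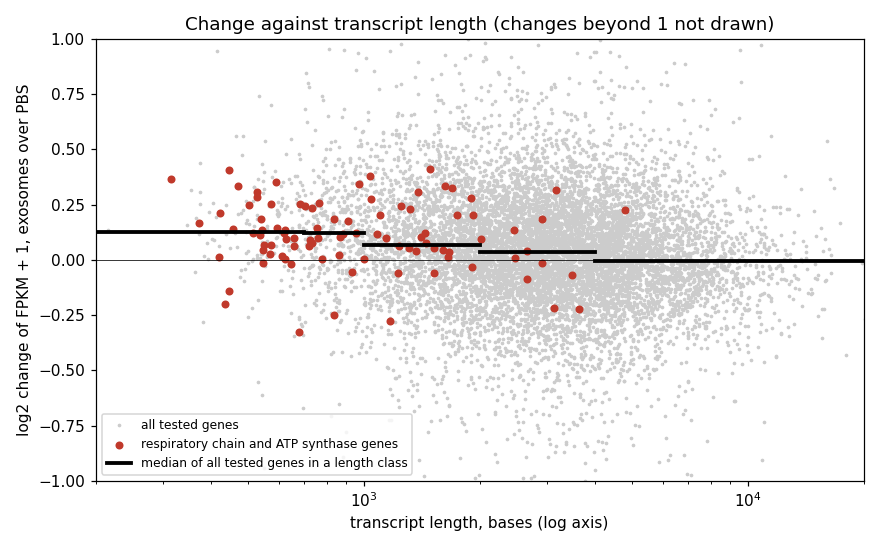
Log2 change of FPKM + 1, exosomes over PBS, against transcript length on a log axis, with all tested genes in grey, the respiratory chain and ATP synthase genes in red and the median of all tested genes in each length class as a black bar. The bars step down from 0.12 under 700 bases to -0.00 at 4000 or more, and the red points lie mostly in the short classes.

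Some values are uncertain because sequence is shared. In the annotation 26 of the 102 genes found by symbol share exon sequence with another protein-coding gene, 4 of them on the same strand, and the use of strand in counting is not stated. Of the called genes 8 are among them, including Ndufs3, Ndufa2, Ndufa13, Ndufb11, Uqcrc2, Cox15 and Atp5o. Named pseudogenes exist in RefSeq for 10 genes, of which Ndufs5 and Cycs were called.

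Genes that build or regulate the same machinery were read from lists outside the naming rule. Assembly factors with other names had 13 raised (39.4%) and 3 lowered (9.09%) of 33 tested, against 25.4% and 18.4% of all tested genes. Their median change was 0.10, against 0.04 over all tested genes. In fits that left out 1 library, 9 to 12 were raised and 3 lowered, and the median was 0.09 to 0.12. The fewest, 9, were raised without exosome replicate 3 or PBS replicate 3. Bcs1l, 1 of the 13, lost its call in all 6 of these fits. The shares of all tested genes called in them are not given here. The authors' own comparison from counts raised 7 of the 33 and lowered 2, against 16.8% and 19.8% of tested genes with a value. Higd1a, a small protein that binds complex IV, had 7.76, 7.54 and 8.56 FPKM with exosomes, against 12.7, 12.6 and 11.6 FPKM with PBS. Sdhaf3, an assembly factor of complex II, had 8.48, 8.82 and 9.01 FPKM with exosomes, against 4.52, 5.18 and 6.15 FPKM with PBS. Sco2, which brings copper to COX2, had 9.29, 7.32 and 8.06 FPKM with exosomes, against 11.5, 11.96 and 12.2 FPKM with PBS. In all 3 the groups were well apart, with exosomes lower for Higd1a and Sco2 and higher for Sdhaf3. The changes were -0.57 ± 0.06, 0.64 ± 0.09 and -0.49 ± 0.07, each larger than any change among the 93 genes (adjusted p = 0.000111, 0.000423 and 0.000855).

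Of the 10 tested regulators of mitochondrial biogenesis 1 was raised and 2 lowered, against 25.4% and 18.4% of all tested genes. Pprc1, a coactivator related to PGC-1alpha, averaged 11.1 ± 0.420 FPKM with exosomes and 15.3 ± 0.565 FPKM with PBS, a change of -0.43 ± 0.05 (adjusted p = 0.000205). Tfb2m, a transcription factor of mitochondrial DNA, changed by -0.29 ± 0.07 and Tfb1m, which methylates mitochondrial ribosomal RNA, by 0.38 ± 0.10 (adjusted p = 0.00755 and 0.0162). The call of Tfb1m was lost without exosome replicate 2 (adjusted p = 0.0670). The mitochondrially encoded subunits were not analysed here.

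Ubiquinone, the carrier between complexes I or II and complex III, was represented by 11 tested genes that make or bind it. Of these 5 were raised (45.5%) and 2 lowered (18.2%), against 25.4% and 18.4% of all tested genes, with a median change of 0.19. Leaving out 1 library gave 3 to 5 raised, 1 to 3 lowered and a median of 0.11 to 0.22, with 3 raised without exosome replicate 1, exosome replicate 3 or PBS replicate 2. In those fits 1 was lowered without exosome replicate 1, exosome replicate 2 or PBS replicate 1, and the median was lowest without PBS replicate 1. Coq9 and Coq3 changed by 0.30 ± 0.05 and 0.35 ± 0.08, and Coq10b, which binds ubiquinone in the membrane, by -0.46 ± 0.11 (adjusted p = 0.00118, 0.00723 and 0.0106). Of 7 tested enzymes of other electron entry routes 4 were raised (57.1%) and 1 lowered (14.3%), against 25.4% and 18.4% of all tested genes. Without exosome replicate 3, 2 were raised. Suox, sulfite oxidase, which hands electrons to cytochrome c, had 5.05, 5.42 and 4.96 FPKM with exosomes, against 2.49, 3.06 and 2.48 FPKM with PBS. Sqrdl, which oxidises sulfide and reduces ubiquinone, had 11.96, 11.1 and 12.7 FPKM with exosomes, against 18.2, 18.3 and 16.8 FPKM with PBS. The groups were far apart in both, with changes of 0.74 ± 0.08 for Suox and -0.54 ± 0.06 for Sqrdl (adjusted p = 8.1e-05 and 0.000138). Etfdh, through which fatty acid oxidation feeds ubiquinone, changed by 0.23 ± 0.05 (adjusted p = 0.00498).

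Of 10 tested genes of coupling and membrane transport, a list of uncoupling proteins, inner-membrane carriers, outer-membrane pores and small proteins bound to ATP synthase, 2 were raised and 2 lowered, against 25.4% and 18.4% of all tested genes. With 1 library left out, 1 was raised in every fit but that without exosome replicate 2, since 2010107E04Rik lost its call (adjusted p up to 0.161), and 3 were lowered without exosome replicate 3. Ucp2, an uncoupling protein family member, had 21.3, 19.8 and 19.2 FPKM with exosomes, against 14.8, 14.1 and 13.5 FPKM with PBS. Slc25a5, an ADP/ATP carrier of dividing cells, had 190.0, 179 and 211 FPKM with exosomes, against 279, 246 and 265 FPKM with PBS. The groups were apart in both, with changes of 0.48 ± 0.06 for Ucp2 and -0.44 ± 0.07 for Slc25a5 (adjusted p = 0.000172 and 0.000920). Vdac2, a pore of the outer membrane, changed by -0.22 ± 0.04 (adjusted p = 0.00155). Among 12 genes of mitochondrial shape and cristae 2 were raised and 1 lowered, again against 25.4% and 18.4% of all tested genes. Chchd6 and Apool, of the cristae junction complex, changed by 0.47 ± 0.06 and 0.40 ± 0.09, and Phb, a prohibitin, by -0.27 ± 0.06 (adjusted p = 0.000372, 0.00659 and 0.00444).

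Promoters of respiratory genes are known for sites of NRF1, of ETS factors such as GABP, and of YY1, and the start regions of 84 of the 103 genes could be matched in the RefSeq promoter table (GRCm38.p6, 250 bases before to 50 after the start). The letters GCGCATGCG, the core of the NRF1 site, were found on either strand in 13.1% of them, against 1.95% of all 27025 genes in the table. Among the 79 of the 84 that were tested the share was 13.9%, against 4.59% of the 8351 tested genes with a promoter. These letters overlap themselves on the opposite strand and were counted once per gene. The ETS core CCGGAAG was found in 26.2% of the 84, against 9.93% of all, and in 27.8% of the 79, against 22.2% of tested genes. The YY1 letters AAGATGGCG were found in 10.7% of the 84, against 1.64% of all, and in 11.4% of the 79, against 4.11% of tested genes. The hypoxia response core ACGTG was found in 26.2% of the 84, against 21.8% of all, and in 24.1% of the 79, against 30.5% of tested genes. Among the 24 raised genes with a promoter, 1 held the NRF1 letters (4.17%), against 10 of the 55 tested and not raised (18.2%). The shares in the same 2 groups were 20.8% and 30.9% for the ETS letters, 8.33% and 12.7% for the YY1 letters and 20.8% and 25.5% for the hypoxia letters, and these differences were not tested. A match is a description of letters and not a binding site.

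The 150 bases before the start of 4 genes called in both comparisons are shown, 3 raised and 1 lowered. They were taken by rule, largest change first, from such genes with only 1 start region and a match before the start. Holding a match was thus a condition of being shown. Capitals mark the letters found: ACGTG for Atp5s, CCGGAAG for Ndufaf1, and for Atp5g2 and Ndufaf4 the overlapping pair of NRF1 matches, one on each strand. Each runs 5′ to 3′ in the direction of the gene. Atp5s lies at chr12:69724795-69724944 on the plus strand, Ndufaf1 at chr2:119662835-119662984 on the minus strand, Atp5g2 at chr15:102671048-102671197 on the minus strand and Ndufaf4 at chr4:24897933-24898082 on the plus strand (GRCm38.p6, RefSeq).
Atp5s: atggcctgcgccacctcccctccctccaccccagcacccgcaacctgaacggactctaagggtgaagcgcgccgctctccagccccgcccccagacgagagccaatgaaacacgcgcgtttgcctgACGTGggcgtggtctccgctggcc
Ndufaf1: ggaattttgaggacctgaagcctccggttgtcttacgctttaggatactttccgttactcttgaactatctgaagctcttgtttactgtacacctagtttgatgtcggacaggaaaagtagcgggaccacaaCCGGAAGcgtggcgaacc
Atp5g2: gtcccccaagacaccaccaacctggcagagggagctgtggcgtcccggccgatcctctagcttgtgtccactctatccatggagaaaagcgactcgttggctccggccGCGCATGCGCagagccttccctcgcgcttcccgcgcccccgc
Ndufaf4: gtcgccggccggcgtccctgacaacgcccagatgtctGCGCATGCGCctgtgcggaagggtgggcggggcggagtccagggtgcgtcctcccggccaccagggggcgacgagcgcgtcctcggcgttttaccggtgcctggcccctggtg
Atp5g2, which was raised, and Ndufaf4, which was lowered, hold the same NRF1 letters. Every gene shown had to hold a match, so no link between letters and direction can be read from these genes. In Atp5g2 the NRF1 letters begin 42 bases before the start and in Ndufaf4 113 bases before it.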

How the data were processed

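The labels' protocols give stranded TruSeq mRNA libraries read as paired ends. Named in the submitters' processing notes are DESeq, HTSeq, Cufflinks, StringTie, SAMtools, HISAT2, Bowtie2, Trimmomatic and the mm9 build, without roles or versions. The authors deposited 1 expression column per library, read here as FPKM because of Cufflinks in those notes, unequal column sums and the relation to transcript length. Per the file headers the table also holds normalized counts averaged over each group (a signal), the fold between them (a ratio, equal to that of the means in 15086 of 15086 genes checked) and p-values, raw and adjusted. The table gives no counts of single libraries, so a count test, planned only in case it held them, was not run.

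The test was limma 3.58.1 in R 4.3.3 on log2(FPKM + 1), with trend and robust variances, two-sided, group as the only term, 3 libraries against 3, for all genes at 1 FPKM or more in at least 3 of 6 libraries, and it was tested on simulated data. Errors are SD for FPKM and SE for changes, which on this scale understate the change of low genes. Lengths are medians over RefSeq-linked coding transcripts of GENCODE M21, which is of another build and gave no coordinates. Alternatives were pseudocounts of 0.1 and 0.5, no filter or one of 5 FPKM, 2 scalings, a length trend removed, plain variances, a replicate block and leaving out each library. Named by rule were called genes of largest change per complex, the most abundant of each, catalytic and carrier subunits, isoform sets, untested genes and up to 3 genes per related list; others complete a role or stand out by a value and were named after values were seen. Genes and lists were chosen with earlier results of these data known. One gene is counted in the totals and not reported here by name.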

Additional observations from a re-analysis of the deposited data

How the results depend on the processing

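The count of raised genes, 32, was between 24 and 38 under the other pseudocounts, filters, scalings and variance settings run here, and 13 in the authors' deposited comparison from counts. Leaving out 1 library each gave 24 to 40 raised genes, 1 to 3 lowered genes and a median change of 0.09 to 0.14. Apart from the authors' comparison, the shares of all tested genes called under these settings are not given here. The 4 lowered genes became 2 with no filter on low values, 2 with a filter of 5 FPKM, 7 with the length trend removed and 2 in the authors' deposited comparison. With no filter more genes were tested, and with a filter of 5 FPKM Ndufaf4 and Ndufaf5 were not tested; for the other settings the cause was not tested. The median change of 0.10 became 0.024 with the length trend removed, a step that also takes out a shift shared by all genes. With the replicate number of the titles as a block, 28 genes were raised and 3 lowered. Same-numbered libraries did not deviate together (correlations of -0.12, -0.021 and -0.295), so the numbers were not taken as pairs. No called gene changed sign in any setting run. Of the 36 called genes 23 were called in every setting in which they were tested, the authors' comparison aside. With 3 libraries per group small changes can be missed, and the table gives no counts per library, so counting error of a single library could not be given.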
